A study of Homo sapiens with 6 samples.

Results

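The 10 genes described here encode Eph receptors and their ligands, the ephrins, and were chosen by name: the receptor genes EPHA2, EPHA3, EPHA4, EPHA5, EPHB2 and EPHB4 and the ligand genes EFNA1, EFNA5, EFNB1 and EFNB2. Each matched a single row of the 58721 rows of the count table. RNA was sequenced from A375, an established human melanoma line with a mutant BRAF gene, grown in DMEM with 10% fetal bovine serum. The control group is 3 libraries with a guide RNA against mCherry, a fluorescent protein gene absent from the human genome, and its genotype label is WT. The knockout group is 3 libraries with a guide RNA against SOX10, which encodes a neural crest and melanocyte transcription factor. Both groups come from the same line. Pool or clone, the position of the guide and the origin of the replicates were looked for in the labels and were not given in the sources used here. The p-values therefore rest on a spread between libraries that may be technical.

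Eph receptors are the largest family of receptor tyrosine kinases, and their ligands stay attached to the neighbouring cell. A-type ephrins are held by a lipid anchor and bind mainly EphA receptors, while B-type ephrins cross the membrane and bind mainly EphB receptors, with EPHA4 able to bind both types. Contact between cells therefore signals forward into the receptor-bearing cell and in reverse into the ephrin-bearing cell, and the usual outcome is a change in adhesion, repulsion or migration. In the embryo the system guides neural crest cells, from which melanocytes derive, and in melanoma EPHA2 in particular has been studied for its part in invasion and drug resistance.

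Gene counts summed to between 70075002 and 78148565 per library, and values are given as CPM, counts scaled to a common library size. The lowest level that 3 counts represent was 0.0383 to 0.0417 CPM, which covers counting error only. SOX10, the targeted gene, held 241, 237 and 223 CPM in control and 47.2, 47.8 and 41.5 CPM in knockout replicates 1, 2 and 3 (log2 fold change -2.36, SE 0.08, edgeR quasi-likelihood test with Benjamini-Hochberg adjustment, adjusted p = 1.84e-07; exact two-sided permutation p = 0.1, the smallest that 3 against 3 libraries allow). All knockout libraries thus lay below all control libraries, at 17.7% to 20.4% of the control mean. SOX10 shares 2.40% of its exon bases with POLR2F on the opposite strand, which went from 113 to 84.9 CPM. Among 10 melanocyte and melanoma markers, SOX10, CSPG4, MITF, S100B and PAX3 were present in control libraries, whereas PMEL, TYR and TYRP1 stayed under 1 CPM in every library and TYR had at most 1 count. The summed level of the 10 markers, in which SOX10 itself is the largest in control cells, was 473 to 534 CPM in control and 301 to 335 CPM in knockout libraries. Of the 10, 5 fell, 2 rose, 2 did not pass the test and TYR could not be tested. The 5 include SOX10, the targeted gene. DCT, which fell, passed the filter on low counts only through the control libraries, and TYRP1, which rose, only through the knockout libraries. The calls of DCT and TYRP1 therefore add no support to these counts. MITF rose from 57.5 ± 2.15 to 138 ± 2.29 CPM, while S100B fell from 32.9 ± 4.34 to 1.28 ± 0.134 CPM and DCT from 1.62 ± 0.175 to 0.0657 ± 0.0258 CPM. Across all 19263 genes tested, 5396 passed an adjusted p of 0.05, which is 28.0%, with 14.0% higher and 14.0% lower in knockout.

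The sequences upstream of the start sites are shown first for the receptor genes whose RNA fell, EPHA3, EPHA4 and EPHB4, and for EPHA2, the most abundant receptor, whose RNA rose. They are from RefSeq on GRCh38.p14, 5′ to 3′ on the strand of the gene, cut to the bases before the annotated start that lie in no exon of that gene in GENCODE. Capitals mark a SOX core motif. The stretches lie at chr3:89107371-89107523 on the plus strand for EPHA3, and on the minus strand at chr2:221574203-221574452 for EPHA4, chr7:100827524-100827773 for EPHB4 and chr1:16156088-16156319 for EPHA2.
EPHA3: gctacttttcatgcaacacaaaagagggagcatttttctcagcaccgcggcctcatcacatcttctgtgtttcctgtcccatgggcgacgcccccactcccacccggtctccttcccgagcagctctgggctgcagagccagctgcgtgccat
EPHA4: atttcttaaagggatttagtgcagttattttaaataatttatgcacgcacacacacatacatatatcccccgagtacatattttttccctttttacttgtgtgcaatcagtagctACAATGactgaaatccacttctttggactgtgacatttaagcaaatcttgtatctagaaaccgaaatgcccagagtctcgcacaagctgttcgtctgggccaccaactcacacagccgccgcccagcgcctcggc
EPHB4: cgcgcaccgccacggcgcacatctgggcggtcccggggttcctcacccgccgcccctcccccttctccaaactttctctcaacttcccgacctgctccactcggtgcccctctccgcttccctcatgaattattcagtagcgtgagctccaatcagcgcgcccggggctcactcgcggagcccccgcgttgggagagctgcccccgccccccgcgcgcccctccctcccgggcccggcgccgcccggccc
EPHA2: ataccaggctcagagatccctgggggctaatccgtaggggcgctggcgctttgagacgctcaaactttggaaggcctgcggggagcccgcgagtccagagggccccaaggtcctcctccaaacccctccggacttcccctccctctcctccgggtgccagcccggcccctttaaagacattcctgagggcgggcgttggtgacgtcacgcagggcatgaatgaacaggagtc
The capitals in EPHA4 spell ACAATG, which begins 135 bases before the start, and the other 3 stretches hold no capital.

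Promoter windows from 250 bases before to 50 after a RefSeq start were available for all 10 genes, 13 windows in all because EPHA4, EPHA5 and EPHB2 have more than 1 start. On both strands, 2 of the 13 held a SOX core motif, spelled ACAAAG or ACAATG: the EPHA4 window above, and the EFNA1 window with ACAAAG beginning 238 bases before the start. Of all 35116 RefSeq windows of this length, 24.5% held at least 1 of these spellings, 16.1% ACAAAG and 10.8% ACAATG. The AP-1 motif TGANTCA was in none of the 13 and in 7.71% of all windows. The second EPHA4 window held no match. Windows of the 10 genes had a median GC content of 71.7%, against 58.7% for all windows, and ranged from 43% in the upstream EPHA4 window to 83% in EPHB2. These letters describe the windows only.

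Of the 10 genes, 4 were higher in knockout (EPHA2, EPHA5, EPHB2 and EFNA5), 3 were lower (EPHA3, EPHA4 and EPHB4) and 3 did not pass the test (EFNA1, EFNB1 and EFNB2). The share called over all tested genes was 28.0%, and 32.7% among protein-coding genes averaging 1 CPM or more. The libraries of both groups lay apart for 7 of the 10 genes, and for 41.6% of all tested genes. The 10 genes all passed the filter on low counts, EPHA5 through the knockout libraries alone. All 6 receptor genes were called, in both directions, and 1 of the 4 ephrin genes. The call of EPHA5 adds no support to these counts, since a gene that enters only through the group where it is high had to differ. The median log2 fold change over the 10 genes was -0.01, against -0.02 over all tested genes. In bulk RNA, fewer cells with a transcript and less of it per cell cannot be told apart.

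**Figure D1:**
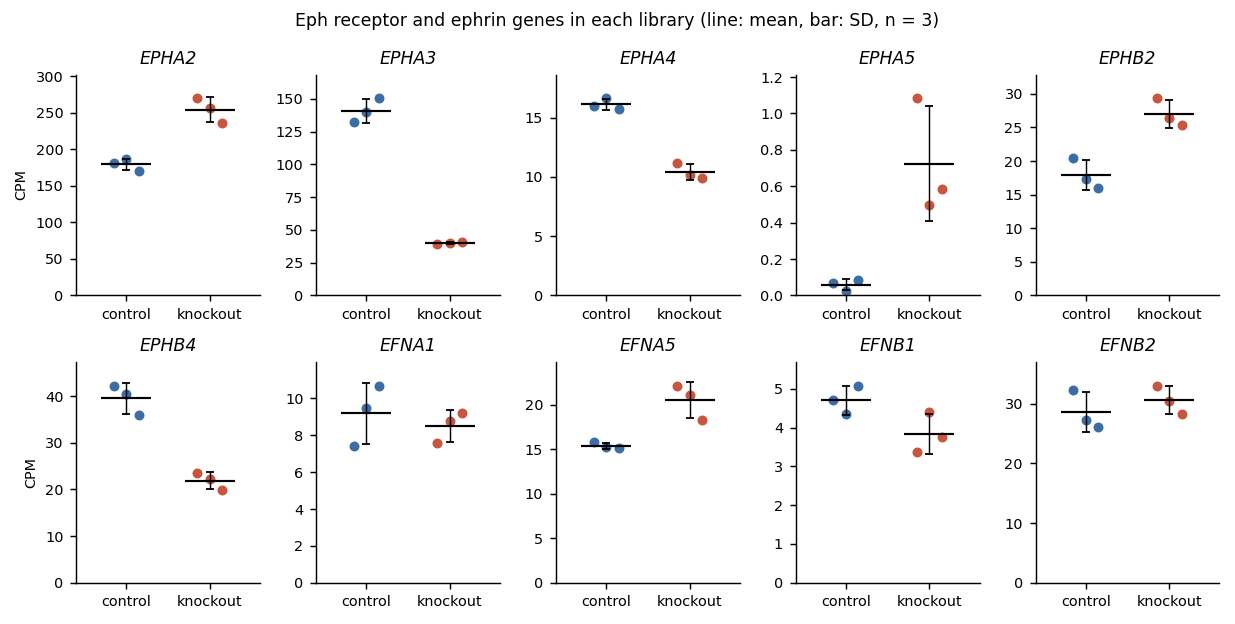
CPM of each of the 10 genes in the 3 control (blue) and 3 knockout (red) libraries, with the mean as a line and the SD as a bar; every axis starts at 0. The groups do not overlap for EPHA2, EPHA3, EPHA4, EPHA5, EPHB2, EPHB4 and EFNA5, and they overlap for EFNA1, EFNB1 and EFNB2.

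Among the EphA receptors, EPHA3 changed most firmly. EPHA3 (ENSG00000044524; GRCh38 chromosome 3, 89107524 to 89482134, plus strand), a receptor of A-type ephrins expressed in embryonic mesenchyme and in several tumours, stood at 132, 140.1 and 151 CPM in the control libraries and at 39.5, 39.96 and 40.6 CPM in the knockout libraries. All control libraries lay far above all knockout libraries, and the knockout libraries were close to each other. The mean fell 3.52-fold, from 141 ± 9.25 to 40.02 ± 0.513 CPM (SD, n = 3 each; log2 fold change -1.82, SE 0.07, edgeR adjusted p = 3.66e-07).

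EPHA2 (ENSG00000142627; chromosome 1, 16124337 to 16156087, minus strand), whose main ligand is ephrin-A1 and which can also signal without ligand, went the other way. It was at 181, 186 and 170.1 CPM in control and at 269.7, 256 and 236 CPM in knockout libraries. The lowest knockout library was above the highest control library. The mean rose 1.42-fold, from 179 ± 8.12 to 254 ± 16.9 CPM (log2 fold change 0.50, SE 0.07, edgeR adjusted p = 7.95e-04).

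EPHA4 (ENSG00000116106, chromosome 2, 221418027 to 221574202, minus strand), a receptor that binds ephrins of both types, was less abundant. Its libraries held 16.01, 16.6 and 15.8 CPM in control and 11.2, 10.2 and 9.91 CPM in knockout. The groups did not overlap, and the mean fell 1.55-fold, from 16.1 ± 0.456 to 10.4 ± 0.691 CPM (edgeR adjusted p = 3.25e-04; log2 fold change -0.63, SE 0.08).

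EPHA5 (ENSG00000145242; chromosome 4, 65319563 to 65670495, minus strand), a receptor known mainly from the nervous system, was close to the detection limit in control cells, with 5, 2 and 6 counts per library. The knockout libraries held 78, 39 and 46 counts, or 1.08, 0.498 and 0.587 CPM. All knockout libraries were above all control libraries, yet the level stayed near 1 CPM or below. Summed over libraries and corrected for depth, the ratio of knockout to control was 11.96, with an exact 95% interval of 6.80 to 22.95 that covers counting error only. Having entered the test through the knockout libraries alone, EPHA5 passed the threshold (log2 fold change 3.56, SE 0.49, edgeR adjusted p = 7.35e-04). This fitted fold change depends on the small count that edgeR adds to low values. The antisense gene EPHA5-AS1 shares 5.44% of the exon bases of EPHA5 and was itself at 0 CPM in control libraries, with a mean of 0.00425 CPM in the others.

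The EphB receptors among the 10 genes also split. EPHB4 (ENSG00000196411; chromosome 7, 100802565 to 100827521, minus strand), the receptor of ephrin-B2 that marks veins in development, was at 42.3, 40.4 and 35.9 CPM in control and 23.4, 22.3 and 19.8 CPM in knockout libraries. The groups were well apart, with a 1.81-fold lower mean in knockout (log2 fold change -0.85, SE 0.09, edgeR adjusted p = 1.49e-04). EPHB4 shares 1.07% of its exon bases with SLC12A9 on the opposite strand, which went from 8.37 to 7.66 CPM.

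EPHB2 (ENSG00000133216; chromosome 1, 22710839 to 22921500, plus strand), a receptor of B-type ephrins known from axon guidance and from the gut lining, rose. Control libraries held 20.5, 17.3 and 16.04 CPM and knockout libraries 29.3, 26.4 and 25.4 CPM. The lowest knockout library exceeded the highest control library, and the mean was 1.51-fold higher (log2 fold change 0.59, SE 0.10, edgeR adjusted p = 0.00279).

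Among the ligands, EFNA5 alone passed the test. EFNA5 (ENSG00000184349; chromosome 5, 107376889 to 107670895, minus strand) encodes ephrin-A5, a lipid-anchored ligand of EPHA3 and other EphA receptors. It was at 15.8, 15.3 and 15.1 CPM in control and at 22.1, 21.1 and 18.2 CPM in knockout libraries. The groups did not overlap, and the mean was 1.33-fold higher (log2 fold change 0.41, SE 0.08, edgeR adjusted p = 0.00656). EPHA3 and EFNA5, a receptor and a ligand that binds it, thus moved in opposite directions. Of the other EphA receptor genes described, EPHA4 also fell, while EPHA2 and the scarce EPHA5 rose with EFNA5.

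EFNA1 (ENSG00000169242; chromosome 1, 155127460 to 155134857, plus strand) encodes ephrin-A1, the main ligand of EPHA2. Its libraries held 7.44, 9.47 and 10.7 CPM in control and 7.56, 8.76 and 9.21 CPM in knockout, so that all knockout libraries lay inside the range of the control libraries. The log2 fold change was -0.11 with a 95% interval from -0.43 to 0.21 (edgeR adjusted p = 0.616).

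The B-type ligands overlapped between groups. EFNB1 (ENSG00000090776; chromosome X, 68828997 to 68842147, plus strand), the gene mutated in craniofrontonasal syndrome, was at 4.71, 4.34 and 5.09 CPM in control and 3.38, 4.41 and 3.75 CPM in knockout libraries. Knockout replicate 2 was above control replicate 2, and the log2 fold change was -0.29 with a 95% interval from -0.58 to -0.01 (edgeR adjusted p = 0.120). EFNB2 (ENSG00000125266; chromosome 13, 106489731 to 106535662, minus strand), the ephrin-B2 gene that marks arteries in development, was at 32.3, 27.3 and 26.1 CPM in control and 33.1, 30.5 and 28.3 CPM in knockout. These ranges overlapped over most of their length (log2 fold change 0.10, 95% interval -0.12 to 0.32, edgeR adjusted p = 0.513). An antisense gene covers 26.2% of the EFNB2 exon bases and went from 0.1505 to 0.0305 CPM, far below EFNB2.

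Levels of different genes were compared per length, as CPM per kb of exons. In control cells EPHA2 was highest, at 43.1 ± 1.95 CPM per kb, followed by EPHA3 at 21.1 ± 1.39, EPHB4 at 6.14 ± 0.511 and EFNB2 at 5.69 ± 0.660. EPHB4 and EFNB2 overlapped and had no clear order. Below them came EFNA1 at 3.62 ± 0.650, EFNA5 at 2.70 ± 0.0616 and EPHA4 at 2.14 ± 0.0603 CPM per kb, with ranges that did not overlap. EPHB2 at 1.43 ± 0.182 and EFNB1 at 1.42 ± 0.113 CPM per kb overlapped, and EPHA5 was last at 0.00609 ± 0.00298.

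In knockout cells EPHA2 was again first, at 61.1 ± 4.08 CPM per kb. EFNB2 at 6.10 ± 0.472 and EPHA3 at 5.997 ± 0.0768 CPM per kb overlapped. EFNA5 at 3.59 ± 0.354, EPHB4 at 3.40 ± 0.288 and EFNA1 at 3.35 ± 0.336 CPM per kb each overlapped the next. EPHB2 followed at 2.16 ± 0.165, and EPHA4 at 1.38 ± 0.0915 overlapped EFNB1 at 1.16 ± 0.157 CPM per kb. EPHA5 was again last, at 0.0735 ± 0.0321 CPM per kb. EPHB2 thus stood above EPHA4, the reverse of their order in control cells. With the longest transcript in place of all exons, 6 of the 10 genes held the same place in knockout, and without knockout replicate 1 the number was 5. It was 8 in control without control replicate 1, and likewise without control replicate 2.

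**Figure D2:**
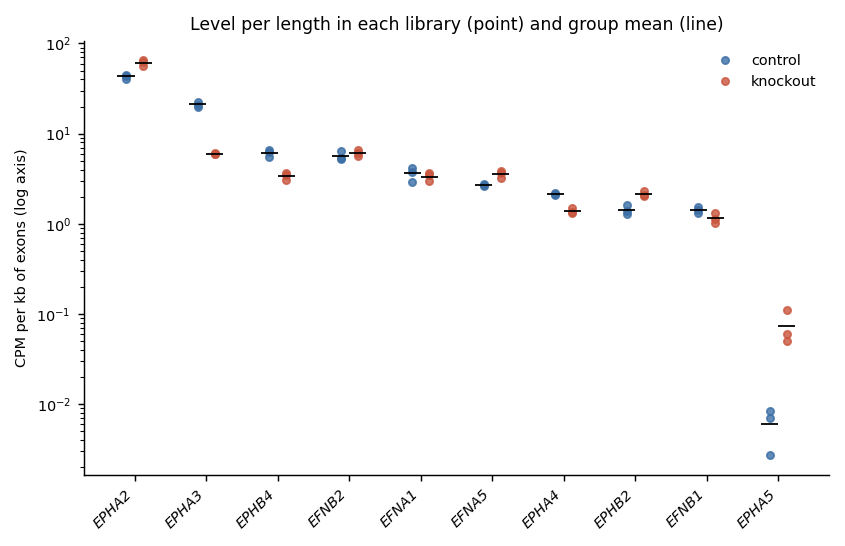
CPM per kb of exons on a log axis for the 10 genes, ordered by their control mean; points are libraries (blue control, red knockout) and lines are means of 3. EPHA2 is highest in both groups at 43.1 and 61.1 CPM per kb, and EPHA3 drops from 21.1 to 5.997.

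The make-up of the receptor transcripts followed from these levels. EPHA2 made up 59.1%, 59.2% and 56.5% of the summed level per kb of the 6 receptor genes in control libraries and 82.8%, 82.6% and 81.9% in knockout libraries. EPHA3 made up 26.9%, 27.8% and 31.2% in control and 7.56%, 8.03% and 8.77% in knockout. The ratio of EPHA2 to EPHA3 was 2.05 ± 0.207 in control and 10.2 ± 0.808 in knockout cells (SD, n = 3 each). These shares depend on each other, since a larger share of EPHA2 leaves less for the rest, and they are given as a description with no test.

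**Figure D3:**
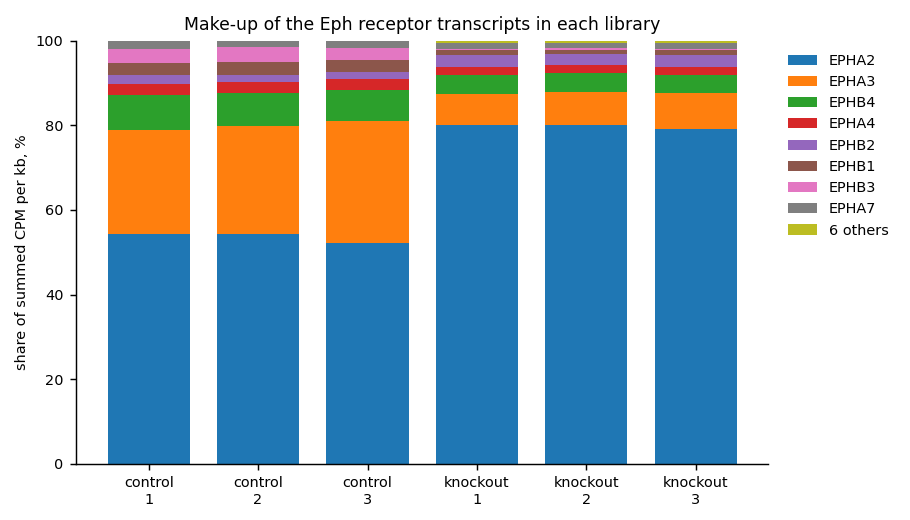
Share of Eph receptor genes in the summed CPM per kb of the 14 Eph receptor genes, in percent, 1 bar per library. EPHA1, EPHA5, EPHA6, EPHA8, EPHA10 and EPHB6 are drawn together as 1 segment. EPHA2 takes 53.6% on average in control and 79.8% in knockout libraries, and EPHA3 takes 26.3% and 7.87%.

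Summed over the whole family, the EphA receptors overlapped in total: 67.04, 69.2 and 66.8 CPM per kb in control against 73.6, 70.1 and 65.4 in knockout libraries. The EphB sum was lower, at 13.3, 13.02 and 11.4 CPM per kb in control and 7.26, 6.76 and 6.21 in knockout. The ephrin-A sum, 9.52 ± 0.912 in control and 10.3 ± 0.392 CPM per kb in knockout, and the ephrin-B sum, 8.25 ± 0.588 and 7.88 ± 0.334, overlapped between groups. The ratio of ephrin-B to EphB transcripts was accordingly 0.658 ± 0.0470 in control and 1.17 ± 0.0430 in knockout cells, without overlap. With the longest transcript as length, this ratio was 0.524 in control and 0.937 in knockout cells. Whether ligand or receptor transcripts were more abundant in knockout cells thus depended on the length used. The ratio of EFNB2 to its receptor EPHB4 was 0.926 ± 0.0573 in control and 1.80 ± 0.0415 in knockout cells. The ratio of ephrin-A to EphA transcripts, 0.141 ± 0.0149 and 0.148 ± 0.0144, overlapped.

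The 12 other genes of the family were examined for comparison. Of these, 9 could be tested, 3 rose and 3 fell, beside 14.0% of all tested genes in each direction, with a median log2 fold change of -0.07. EPHB6 and EPHA1 entered the test through the knockout libraries alone, so that their calls add no support to the count. EPHB3, a receptor of B-type ephrins, fell from 11.97, 12.7 and 10.3 CPM in control to 1.03, 0.983 and 0.778 CPM in knockout libraries, 12.5-fold (edgeR adjusted p = 4.19e-07; log2 fold change -3.65, SE 0.14). EPHB1 fell from 16.7, 17.7 and 15.7 to 6.04, 5.31 and 5.57 CPM, 2.96-fold. The ligand gene EFNB3 fell from 3.65 ± 0.218 to 1.99 ± 0.332 CPM. All of these groups were apart. EPHB1 and EPHB3, with EPHB4, made up the lower EphB sum, against the rise of EPHB2 and EPHB6.

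The 3 other genes that rose were scarce. EPHB6, which lacks kinase activity, had 7, 5 and 5 counts in control and 69, 84 and 56 counts in knockout libraries, a depth-corrected ratio of 11.7 with an exact 95% interval of 7.15 to 20.5 that covers counting error only. EPHA1 (0.0737 ± 0.0452 to 0.227 ± 0.0937 CPM, edgeR adjusted p = 0.0494) and EPHA6 (0.418 ± 0.0761 to 0.689 ± 0.0453 CPM, edgeR adjusted p = 0.0406) were just past the threshold, and each missed it in 7 of 12 other fits, where the adjusted p reached 0.193 for EPHA1 and 0.143 for EPHA6. DESeq2, for example, called 1 of the 12 genes higher, as did each fit that left out control replicate 2 or 3 or any 1 knockout library. EPHA1 also shares 1.73% of its exon bases with ZYX, which is on the opposite strand and went from 62.7 to 81.7 CPM. The strand setting of the counting was not given in the sources used here. EPHA7, EFNA3 and EFNA4 did not pass the test (edgeR adjusted p = 0.0664, 0.859 and 0.783), and EPHA8, EPHA10 and EFNA2 had at most 1 count in any library.

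**Figure D4:**
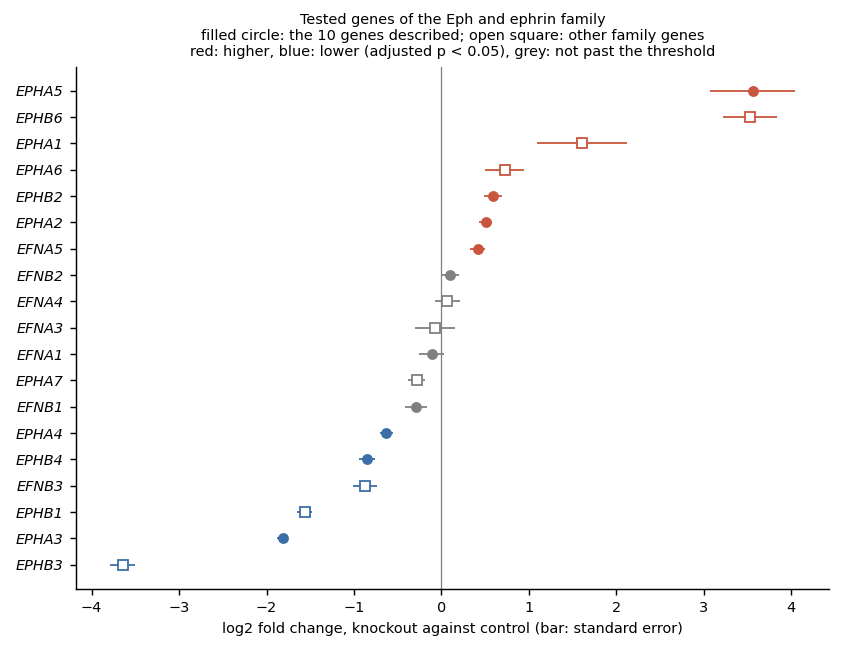
Log2 fold change of knockout against control with its standard error for the 19 tested Eph and ephrin genes, filled circles for the 10 genes described and open squares for the others; red and blue mark genes past an adjusted p of 0.05. Values run from -3.65 for EPHB3 to 3.56 for EPHA5.

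Genes that act with the family were counted in 3 lists. Of 31 tested adaptors, kinases and other effectors downstream of Eph receptors, 5 rose and 10 fell, with a median log2 fold change of -0.15. VAV3, an exchange factor that binds activated Eph receptors, rose from 1.80 ± 0.398 to 13.1 ± 0.972 CPM (log2 fold change 2.86, edgeR adjusted p = 2.42e-06). ARHGEF16, an exchange factor that associates with EPHA2, rose from 0.129 ± 0.0225 to 0.755 ± 0.202 CPM, and BCAR1, the adaptor p130Cas, from 31.7 ± 1.15 to 41.6 ± 2.52 CPM. With 9, 8 and 11 counts in control, ARHGEF16 passed the filter on low counts only through the knockout libraries. Its call therefore adds no support to the count. KALRN, the exchange factor kalirin that acts downstream of EphB receptors in dendritic spines, fell from 8.95 ± 0.617 to 1.47 ± 0.207 CPM (log2 fold change -2.60, edgeR adjusted p = 1.19e-06). The kinase genes FYN (32.1 ± 1.23 to 17.2 ± 0.903 CPM) and SRC (50.9 ± 1.13 to 27.55 ± 2.54 CPM) fell as well. Without control replicate 2, and likewise without knockout replicate 2, 6 genes of this list were called lower.

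Of 10 partners of reverse signalling through ephrins, 4 rose and 1 fell, with a median of 0.19. GRIP1, a PDZ protein that binds the tail of B-type ephrins, rose from 2.21 ± 0.0875 to 7.97 ± 0.442 CPM (log2 fold change 1.85, edgeR adjusted p = 1.87e-06). RGS3, which links ephrin-B to G protein signalling, rose from 12.2 ± 0.805 to 19.4 ± 2.32 CPM and SDCBP, the PDZ protein syntenin, from 217 ± 8.38 to 273 ± 10.9 CPM. PDZRN3, a PDZ-domain ubiquitin ligase, fell from 7.53 ± 0.912 to 4.56 ± 0.280 CPM. GRIP1 shares 3.27% of its exon bases with HELB on the opposite strand, which went from 23.1 to 18.9 CPM. Without control replicate 3, 2 genes of this list were called lower.

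Of 12 proteases, phosphatases and other factors that cut Eph receptors and ephrins or switch them off, 2 rose and 2 fell, with a median of 0.04. ADAM10, the protease that sheds A-type ephrins bound to their receptors, fell from 312 ± 16.3 to 199 ± 8.11 CPM (log2 fold change -0.65, edgeR adjusted p = 1.09e-04). CBLB, a ubiquitin ligase, fell from 18.9 ± 0.221 to 15.05 ± 1.51 CPM. PTPRO, a phosphatase that acts on Eph receptors, rose from 1.54 ± 0.138 to 5.99 ± 0.162 CPM, and NCSTN, the gamma-secretase subunit nicastrin, from 94.2 ± 4.03 to 117 ± 4.14 CPM. NCSTN shares 3.09% of its exon bases with COPA on the opposite strand, which was more abundant and went from 388 to 403 CPM. Without control replicate 1 or 2, or without knockout replicate 2 or 3, 1 gene of this list was called lower. Across the 3 lists the counts stand beside the 14.0% of all tested genes called in each direction, and no list was tested as a set.

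**Figure D5:**
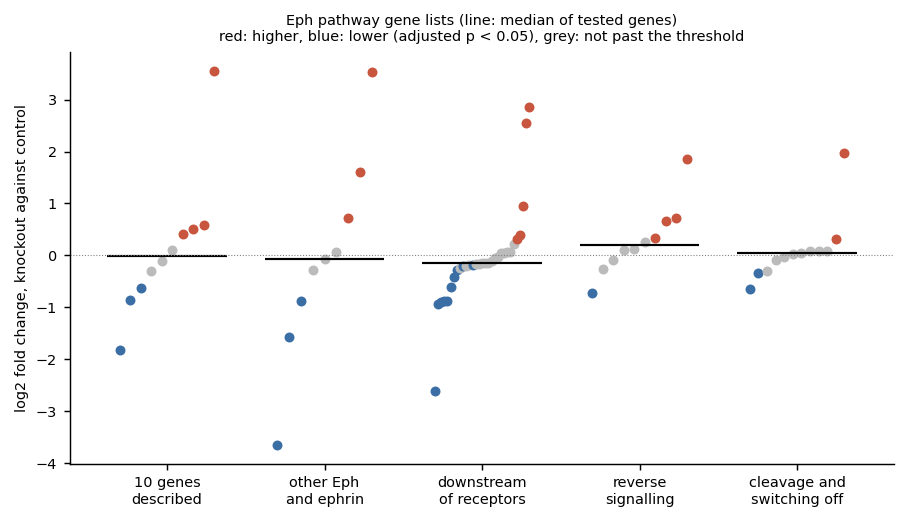
Log2 fold change of each tested gene, as a point, in the 10 genes described, the other family genes and the 3 pathway lists, with the median as a line; red is higher, blue lower at an adjusted p of 0.05, grey not past it. Medians lie between -0.15 and 0.19, with called genes on both sides of 0 in every list.

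The genes whose pattern was most like that of EPHA3, the gene with the smallest p of the 10, were ranked by Pearson correlation of log2 CPM over the 6 libraries among 9474 genes averaging 5 CPM or more. They were PDIA4, TGFA, HLA-DRB1 and RMEL3, with correlations of 0.9994 to 0.9999, which describe mainly the step between the groups. The size of the step is not part of this measure: PDIA4 went from 234 ± 1.52 to 204 ± 0.292 CPM and HLA-DRB1, which has near-identical copies, from 47.3 ± 4.08 to 6.06 ± 0.353 CPM. TGFA, a ligand of the EGF receptor, fell from 634 ± 21.5 to 296 ± 5.26 CPM.

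EPHB4, EFNB2 and EPHA2 are also transcribed in other cell types, and markers of these were read in the same libraries. The summed level of 10 endothelial markers was 11.2 to 11.8 CPM in control and 10.8 to 11.1 CPM in knockout libraries. ROBO4 held most of it and fell (8.42 ± 0.415 to 5.65 ± 0.327 CPM), while PECAM1 (0.293 ± 0.0877 to 1.13 ± 0.156 CPM) and CDH5 (0.431 ± 0.121 to 1.96 ± 0.0579 CPM) rose, and 3 other tested markers did not pass. Of the 10 markers, 6 stayed under 1 CPM in every library, and ERG had 0 counts in all of them. The sum of 8 fibroblast markers was 16.3 to 19.2 CPM in control and 23.4 to 25.7 CPM in knockout, led by LUM, which rose (7.84 ± 1.98 to 14.1 ± 1.88 CPM), and PDGFRB, with DPT at 0 counts. Of the 7 tested, 4 rose and 1 fell, beside 14.0% of all tested genes in each direction. COL1A2 and COL3A1, which are among the 4, passed the filter on low counts only through the knockout libraries. Their calls add no support to the count. The sum of 8 keratinocyte markers, mostly KRT10, was 48.3 to 64.4 CPM in control and 52.5 to 66.9 CPM in knockout, with KRT1 at 0 counts. KRT14 fell from 7.16 ± 0.789 to 0.249 ± 0.0110 CPM, while KRT5 (0.110 ± 0.00185 to 0.788 ± 0.0964 CPM) and EPCAM (0.0873 ± 0.0222 to 0.260 ± 0.0639 CPM) rose. Both KRT5 and EPCAM passed the filter on low counts only through the knockout libraries, so their calls add no support. The sum of 6 immune markers was 11.1 to 14.4 CPM in control and 2.15 to 2.88 CPM in knockout. Most of it was LYZ, which fell from 12.1 ± 1.80 to 1.64 ± 0.360 CPM, while CSF1R rose from 0.174 ± 0.107 to 0.748 ± 0.159 CPM. CSF1R likewise needed the knockout libraries to pass the filter, so its call adds no support. The part of these markers in the results above was not tested.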

How the data were processed

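Stranded mRNA libraries of A375 cells, 3 control and 3 SOX10 knockout, were compared, grouped by their labels. The deposited values are unnormalized counts of reads for each gene, which the authors made with HISAT2 and HTSeq on hg38 per the submitters' processing notes; the tool versions, strand setting and annotation release were not given in the sources used here, so reads of overlapping genes may not be separated. All 58721 identifiers were found in GENCODE 29 (GRCh38), from which coordinates and exon lengths were taken.

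Counts were tested with edgeR 4.0.16 (R 4.3.3): filterByExpr, TMM, two-sided quasi-likelihood test without covariates, Benjamini-Hochberg adjustment over 19263 genes, threshold 0.05. CPM use TMM-scaled totals; levels per kb divide by the union of exons. Totals ranged from 70075002 to 78148565. Replicates differed by more than sampling noise. The fit was also run on simulated counts with no replicate effect and a smaller share of changed genes than was called here. That run therefore does not show how the fit handles these data. Alternatives were DESeq2 1.42.0, limma-voom (limma 3.58.1), other scaling and filters, a replicate block, leaving out each library and another gene length. Named genes were SOX10, the 10 genes, up to 3 per list and direction with the smallest p, the 2 most abundant markers per cell type with those at or near 0 (other markers were named after their values were seen), and the 4 genes most like the member with the smallest p. The genes and lists were chosen with earlier results of these data known.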

Additional observations from a re-analysis of the deposited data

How the results depend on the processing

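All 7 calls among the 10 genes kept their direction and their side of the threshold in the alternative fits that tested them, 12 for EPHA5, which the filter of at least 1 CPM in 3 libraries removed, and 13 for the others; SOX10 kept its call in 13. Leaving out single libraries, the log2 fold change of EFNA1 ran from -0.24 to 0.0092 (above 0 without control replicate 3), that of EFNA3 from -0.20 to 0.028 (above 0 without control replicate 3 or knockout replicate 1) and that of EFNA4 from -0.045 to 0.19 (below 0 without control replicate 2 or knockout replicate 3), none past the threshold. EPHA7 passed without control replicate 3 (adjusted p = 0.0436). With the replicate number as a block, 4637 genes were higher and 5176 lower, EFNB1 (adjusted p = 0.0210) and EPHA7 (0.00181) were called, 19 downstream effectors and 3 reverse partners were lower and 5 turnover factors higher. Whether the numbers pair the libraries was not given in the sources used here, so the main fit has no block. Deviations of same-numbered libraries correlated at 0.55, 0.02 and 0.59. Control replicate 1 with knockout replicate 3 gave -0.55, and control replicate 3 with knockout replicate 1 gave -0.58. Control replicate 2 correlated better with knockout replicate 1 (0.15) than with its own number. Deviations within a group depend on each other, so these values cannot decide the pairing.

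Leaving out single libraries gave 1794 (without knockout replicate 2) to 2958 lower genes and 1986 to 2935 higher genes. It gave 1 to 3 higher among the other family genes, 6 to 10 lower downstream effectors, 1 to 2 lower reverse partners and 1 to 2 lower turnover factors. DESeq2 and no filter on low counts each called 1 other family gene higher. The filter of 1 CPM in 3 libraries removed EPHA1, EPHA6 and EPHB6, and 0 other family genes were then called higher. With the longest transcript as length, the EPHA2 share was 55.4% in control and 80.6% in knockout, the EPHA2 to EPHA3 ratio in knockout 9.30, the EFNB2 to EPHB4 ratio 0.731 and 1.42, and the ephrin-B to EphB ratio 0.524 and 0.937. In the order by level, 6 of 10 knockout places were then as before, 8 to 10 control places without 1 library and 5 to 10 knockout places. With limma-voom, RLE size factors and unscaled totals no count of calls moved by over 1.5 times. The cause of these changes was not tested. Counts of 2 to 9 per library limit EPHA5, EPHB6 and EPHA1 in control cells.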

Other observations

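Within both groups, 6 of the 10 genes (EPHA2, EPHA4, EPHB2, EPHB4, EFNA5 and EFNB2) had their lowest CPM in replicate 3, and EPHA3 and EFNA1 had their highest CPM there. The same was not counted over all tested genes. Across all tested genes, the deviations of control replicate 3 and knockout replicate 3 from their group means correlated at 0.59. That correlation does not give the share of genes lowest or highest in replicate 3. Whether the pattern is particular to these genes was therefore not tested. The libraries of replicate 3 had the largest totals of their groups, 74970700 counts in control and 78148565 in knockout. Control replicate 2 was close, at 74745810 counts, and had the larger total after the TMM scaling that CPM use. A cause was not tested.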
